A study of Schizosaccharomyces pombe with 88 samples.

Results

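The untreated exit from S phase was followed in synchronous fission yeast (Schizosaccharomyces pombe) as the step between 120 and 160 min after elutriation. The 160 min arrays of the rad3, cds1 and wild-type (WT) cultures grown without hydroxyurea (HU) were set against the 120 min arrays of the same cultures, which is 6 arrays against 6, or 12 of the 88 arrays of the series. The arrays were taken by their labels, apart from chk1, which was left out on its values as described below, and the comparison was paired by strain. The series followed WT, rad3, cds1 and chk1 cultures from early G2 in steps of 40 min up to 200 min, with 8 mM HU or without it, and each condition was hybridised on 2 arrays. Every array carried Cy5-labelled cDNA of the sample and Cy3-labelled cDNA of untreated, asynchronous WT cells, and every value below is the deposited log2 ratio of the sample to that common reference.

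The groups were therefore 160 min without HU in rad3, cds1 and WT cells, and 120 min without HU in rad3, cds1 and WT cells. The labels give the mutants by gene name only and do not state the kind of mutation. They name the 2 arrays of a condition technical repeats, so each strain stands for 1 culture. The strain was used as the replicate (n = 3). The p-values and standard errors (SE) come from a fit of strain and time to all untreated times after the start. They measure the spread between these 3 cultures that the fit leaves over those times. They do not measure the spread of the step from 120 to 160 min alone.

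Fission yeast cells born by elutriation start in G2, pass mitosis, and enter S phase at about the time the septum is laid down and cleaved, so that transcripts of S phase and of cell separation are high together. The G1/S wave depends on MBF, a transcription factor that activates genes for nucleotide supply, origin licensing and fork function and is shut off again in G2 by the corepressors Nrm1 and Yox1. Histone transcripts follow DNA replication and need the GATA factor Ams2, while cell separation needs enzymes that digest the septum. Rad3 is the ATR-like checkpoint kinase, Cds1 is the replication checkpoint kinase that it activates, and Chk1 is the damage checkpoint kinase.

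The targeted genes were read first. The 2 rad3 probes were between -3.20 and -2.16 on the rad3 arrays at 160 min and between -3.49 and -2.16 at 120 min, against -0.95 to -0.29 at 160 min and -1.11 to -0.80 at 120 min in the cds1 and WT arrays. The 2 cds1 probes were between -4.08 and -1.78 on the cds1 arrays at 160 min and between -3.82 and -2.06 at 120 min, against 0.00 to 0.70 and -0.21 to 0.63 in rad3 and WT arrays at those times. Both mutants thus stood apart from the other strains at the gene in their name. The chk1-labelled arrays were left out because at 120 min they matched the WT arrays. The second repeats had a correlation over probes of 0.999955, with an SD of the difference of 0.00594, against a correlation of 0.673 at 160 min. The first repeats were less alike, with a correlation of 0.926 and an SD of 0.184, against 0.733 at 160 min. At the start, the first repeats reached 0.909 with an SD of 0.361. On the WT-labelled arrays at 120 min, 1 chk1 probe was at -1.23 and -0.76, below the -0.53 to 0.39 of the other 8 untreated WT arrays, while it lay between -2.48 and -0.79 on the 16 chk1-labelled arrays that did not match WT. It was also at -0.63 on a WT array at the start and at -0.72 and -1.60 on the WT arrays at 160 min with HU, which did not match chk1 (correlations 0.707 and 0.667), so a low value was not confined to the matching arrays. The chk1 and WT arrays at 120 min with HU matched in the same way (correlation of the second repeats 0.999996), as did those at 200 min with HU (0.999969). Their first repeats correlated at 0.941 and 0.976. Which culture these shared arrays came from cannot be told, so counts are also given without WT. On 1 of the 12 arrays, the first repeat of rad3 at 160 min, the median of all probes was -0.15, while on the other 11 it lay between -0.02 and 0.03. Repeats correlated over probes at 0.68 to 0.98.

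Between 120 and 160 min the transcripts of S phase and of cell separation fell, and few genes rose. Of 4927 genes tested with limma across strains and times, 178 passed an adjusted p of 0.05, which is 3.61% of the genes, and 144 of them were lower at 160 min (2.92%) and 34 higher (0.690%). Only 48 of the called genes differed over 2-fold, and of these 46 were lower (0.934%) and 2 higher (0.0406%). In every one of the 178, the 3 strains moved in the same direction. In 172 both repeats of each strain did so, while 17.6% of all genes did (10.4% lower in all). The 178 were chosen by a test on these same arrays, which favours such agreement, so it is no separate support. The 6 arrays at 160 min did not overlap the 6 at 120 min for 154 genes of all tested (3.13%), 117 of them lower (2.37%) and 37 higher (0.751%). Among these were 106 of the called genes and 45 of the 46 lower by over 2-fold, which the choice of the called genes also favours. The median difference over all genes was -0.01. A ratio of bulk RNA does not tell fewer cells in a phase from less RNA per cell, and no measure of DNA content or septation was used here. Without WT, 80 genes were called, 5 higher and 75 lower, and 79 of these were among the 178; 45 of the 46 genes lower by over 2-fold remained.

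The label of the step was checked against phase markers. All 6 G1/S markers (cdc22, cdc18, cdt1, cig2, tos4 and mik1) were lower at 160 min, as were all 9 core histone genes and all 7 measured markers of cell separation (eng1, agn1, adg1, adg2, adg3, mid2 and cfh4). Over all genes 2.92% were called lower. The mid2 call rests on its first probe, as the second alone gave 0.09. Of the 7 mitotic markers, slp1, cdc15 and klp5 were lower and plo1, fkh2, ark1 and klp6 did not pass the test. Markers of S phase and of cell separation were thus lower in the same 40 min, and those of mitosis in part.

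**Figure D1:**
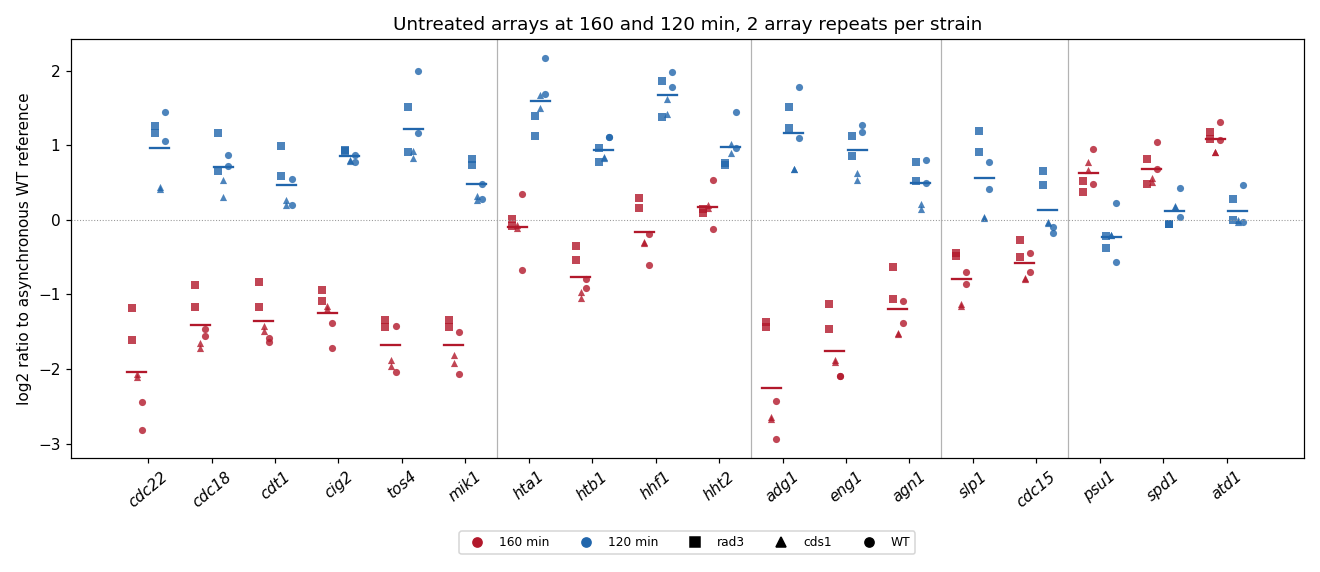
Log2 ratio to the asynchronous WT reference on each array (points, shaped by strain) at 160 min (red, left) and 120 min (blue, right) without HU, for 18 genes in 5 blocks: MBF targets, core histones, cell separation, mitosis and ring, and genes that rose. Bars are means of 6 arrays, and the red and blue points do not overlap for any of these genes. Over all genes tested 3.13% did not overlap, and of the 34 genes called higher 17 did not. For cdc22 the arrays span -2.81 to -1.18 at 160 min and 0.42 to 1.45 at 120 min.

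The MBF targets fell nearly as a block. Of 20 measured targets, 17 were lower at 160 min and none higher, against 2.92% lower over all genes. The median difference was -1.36 against -0.01 for all genes. By strain the median was -1.44 in rad3, -1.15 in cds1 and -1.47 in WT. The 15 whose arrays did not overlap stand against 2.37% of all genes lower without overlap. Without WT 13 of the 20 were called lower, and over all 19 other settings between 13 and 17.

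Among nucleotide supply genes, cdc22, which encodes the large subunit of ribonucleotide reductase, was between -2.81 and -1.18 on the 6 arrays at 160 min (median -2.09), against 0.42 to 1.45 (median 1.11) at 120 min. All 6 arrays at 160 min lay below the reference and all 6 at 120 min above it. The difference was -3.0 ± 0.34 (SE of the fit over all times, n = 3 strains, limma adjusted p = 6.7e-05), or 0.125 of the 120 min ratio. The difference was -2.60 in rad3, -2.52 in cds1 and -3.88 in WT. dut1, which encodes the dUTPase that keeps uracil out of DNA, ranged from -1.97 to -0.72 at 160 min (median -1.36) and from 1.33 to 1.83 at 120 min (median 1.56). It fell by 2.85 on the log2 scale (SE 0.23, adjusted p = 5.3e-06), with the arrays at 120 min close together and well above those at 160 min. dfr1, the dihydrofolate reductase gene, ranged from -0.40 to 0.13 at 160 min and 0.22 to 0.68 at 120 min, a difference of -0.65 ± 0.08 (adjusted p = 0.00020); its 2 probes disagreed, and the first alone gave 0.22.

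The small subunit of the same reductase behaved otherwise. suc22 ranged from -0.23 to 0.15 at 160 min and from -0.36 to 0.19 at 120 min, with a difference of 0.09 ± 0.09 (adjusted p = 0.73), so the arrays of both times overlapped fully. spd1, which encodes the inhibitor of the reductase that is destroyed in S phase, was higher at 160 min, from 0.49 to 1.05 (median 0.62), against -0.06 to 0.43 (median 0.11) at 120 min. Its difference was 0.56 ± 0.14 (adjusted p = 0.035), and the arrays did not overlap. The spd1 call was lost in 5 of the 19 other settings, among them without WT (0.53, adjusted p = 0.39) and without rad3 (0.49, adjusted p = 0.087). Over the whole untreated course the mean of the 3 strains for spd1 was 1.39 at the start, had its lowest value of -0.82 at 80 min, reached 0.12 at 120 min and 0.68 at 160 min, and ended at -0.28. In the 8 genes of the dNTP supply list, 3 fell and 1 rose, against 2.92% and 0.690% of all genes.

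The licensing genes fell together. cdc18, whose product loads the replicative helicase at origins (the Cdc6 relative), was between -1.71 and -0.87 at 160 min (median -1.51) and between 0.31 and 1.17 at 120 min (median 0.69), and fell by 2.11 (SE 0.22, adjusted p = 2.8e-05). cdt1, its partner in loading, ranged from -1.64 to -0.84 at 160 min and from 0.19 to 1.00 at 120 min, a fall of 1.82 (SE 0.21, adjusted p = 9.5e-05). cdt2, the adaptor of the ubiquitin ligase that removes Cdt1 and Spd1 during S phase, ranged from -1.36 to -0.94 at 160 min and -0.02 to 0.16 at 120 min, a fall of 1.16 (SE 0.14, adjusted p = 0.00010). The 3 differed in how far they had been above the reference at 120 min, cdt2 being at it and cdc18 above it.

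Cell cycle regulators under MBF followed the same course. cig2, the S phase cyclin gene, was tight at 120 min, from 0.78 to 0.94, against -1.72 to -0.94 at 160 min, and fell by 2.10 (SE 0.16, adjusted p = 4.0e-06). mik1, which encodes a kinase that holds Cdc2 inactive, fell by the same amount in each strain, -2.17 in rad3, -2.17 in cds1 and -2.17 in WT (SE 0.20, adjusted p = 1.1e-05). Its arrays lay between -2.07 and -1.35 at 160 min and between 0.27 and 0.82 at 120 min. tos4, which encodes a forkhead-associated domain protein, had a difference of -2.90 ± 0.17 (adjusted p = 5.9e-07), from -2.05 to -1.35 at 160 min and 0.83 to 1.99 at 120 min. The MBF regulators themselves moved less: nrm1, the corepressor, fell by 0.70 (SE 0.11, limma adjusted p = 0.0012) and rep2, an MBF coactivator, by 0.56 (SE 0.10, limma adjusted p = 0.0039). The nrm1 call was lost in 1 of the 19 other settings and the rep2 call in 2. In the list of 19 CDK regulators only mik1, cig2 and rep2 were called, all lower, against 2.92% lower over all genes. There rum1, the inhibitor of Cdc2, had a difference of -0.10 ± 0.11 and cdc25, the phosphatase that activates Cdc2, 0.03 ± 0.12.

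Fork and cohesion genes under MBF fell too. mrc1, the fork mediator of the replication checkpoint, was at -1.31 to -0.55 at 160 min and 0.42 to 0.89 at 120 min, and fell by 1.59 (SE 0.15, adjusted p = 1.2e-05). cdm1, a subunit of DNA polymerase delta, fell by 1.74 (SE 0.23, adjusted p = 0.00026), and ssb1, the large subunit of the single-strand binding protein RPA, by 1.08 (SE 0.15, adjusted p = 0.00037). pol1, the catalytic subunit of DNA polymerase alpha, fell by 0.68 (SE 0.11, adjusted p = 0.0022). Among the 52 measured replication factors these 3 and cdc20, the catalytic subunit of DNA polymerase epsilon (-0.45 ± 0.08), were the ones called. The list median was -0.05, and 2.92% of all genes fell. The cdc20 call was lost in 4 of the 19 other settings and the pol1 call in 2. Of 10 cohesin genes 3 fell, against 2.92% of all genes: rad21, the ring's kleisin subunit (-0.73 ± 0.09), psm3, its SMC subunit (-0.57 ± 0.11), and eso1, the acetyltransferase that locks it (-0.38 ± 0.09). The 2 psm3 probes gave -0.85 and -0.30, and the psm3 call was lost on the second probe alone and without WT. ctp1, a break-resection factor and MBF target, fell by 0.78 (SE 0.11), its arrays overlapped, and its call was lost without WT. The targets that were not called were mcl1, a polymerase alpha accessory factor (-0.10 ± 0.08), rnh201, a subunit of RNase H2 (0.01 ± 0.10), and suc22.

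All 9 core histone genes fell, against 2.92% of all genes, with a median difference of -1.70 (-1.30 in rad3, -1.69 in cds1 and -2.15 in WT). All 9 were also called lower in each of the 19 other settings, where 75 to 213 of all genes were. hta1, which encodes H2A, was at -0.68 to 0.35 at 160 min (median -0.08), against 1.12 to 2.17 (median 1.58) at 120 min, a difference of -1.68 ± 0.13 (adjusted p = 4.0e-06). At 160 min its arrays straddled the reference, and at 120 min every array was more than 2-fold above it. The H2B gene htb1 fell by 1.70 (SE 0.17, adjusted p = 1.9e-05) and the other H2A gene, hta2, by 1.73 (SE 0.17, adjusted p = 1.8e-05). The 3 H4 genes fell by 1.83 (hhf1), 1.94 (hhf2) and 1.97 (hhf3), and the 3 H3 genes by 1.53 (hht1), 0.80 (hht2) and 1.22 (hht3). Thus hht2 had the smallest difference of the 9, with arrays from -0.13 to 0.53 at 160 min and 0.74 to 1.45 at 120 min. The 3 H3 genes, and likewise the 3 H4 genes, have near-identical coding sequences, so signal may be shared between copies. Each of the 3 H3 and H4 pairs, and the hta1 and htb1 pair, are neighbours on the chromosome, and both members of each pair fell.

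ams2, the gene of the GATA factor needed for histone transcription, fell with them by 1.56 (SE 0.13, adjusted p = 5.3e-06), from -1.35 to -0.78 at 160 min and 0.06 to 1.05 at 120 min. It was the only one of 15 genes for histone variants, histone regulators and histone chaperones to be called, while 3.61% of all genes were. cnp1, which encodes the centromeric H3 variant, had a difference of -0.21 ± 0.09 (adjusted p = 0.26). Of 31 kinetochore and centromere genes, 1 fell, against 2.92% of all genes: mis17 (-0.45 ± 0.10), a call lost in 9 of the 19 other settings.

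The MBF targets and the histones were at different points of their course at 160 min. The median MBF target stood at -0.83 in rad3, -0.91 in cds1 and -1.05 in WT at 160 min, near its 40 min values of -1.05, -1.12 and -1.21 in the same strains. The median histone stood at 0.12 in rad3, -0.26 in cds1 and -0.38 in WT at 160 min, above its 40 min values of -1.97, -1.89 and -1.98. At 200 min the histone medians were -1.08 in rad3, -1.18 in cds1 and -1.54 in WT, lower again than at 160 min, while the MBF medians were -0.31, 0.05 and -0.17, higher than at 160 min. All 9 histone genes had their highest mean of the 5 times at 120 min and none its lowest at 160 min. Of the 20 MBF targets, 14 had their highest mean at 120 min and 4 at 80 min. Over the 144 genes called lower, the highest mean was at 120 min in 97 and at 80 min in 42, and the lowest was at 160 min in 69 and at 40 min in 63. The call itself bars a highest mean at 160 min and a lowest mean at 120 min, so these times are in part fixed by it.

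**Figure D2:**
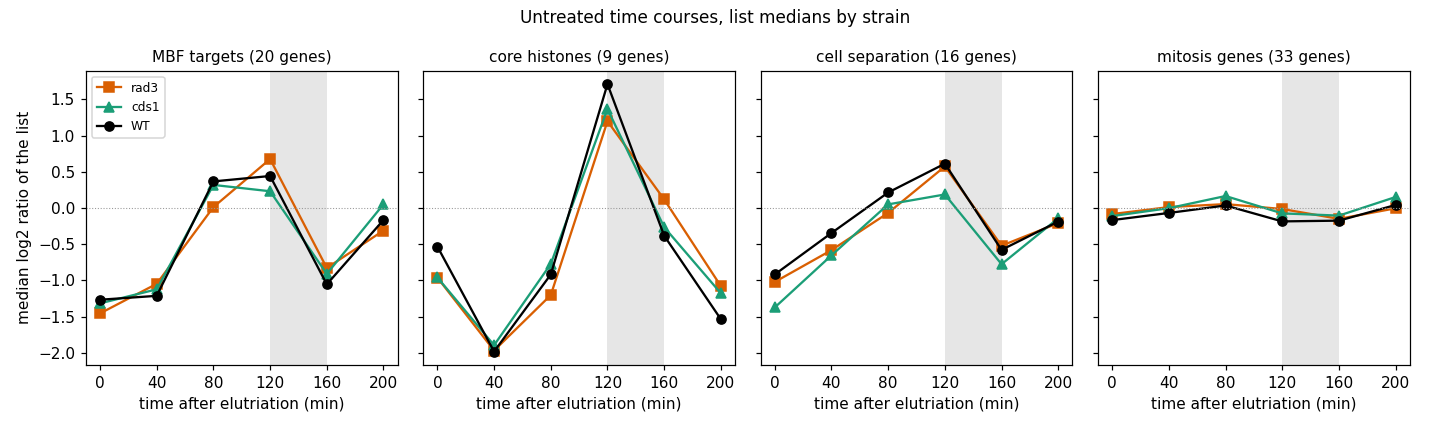
Median log2 ratio of 4 gene lists (y axis) over time after elutriation in min (x axis) in untreated rad3, cds1 and WT cells; each point is the median over the genes of a list of the mean of 2 arrays, and the grey band marks 120 to 160 min. MBF targets are near their 40 min values at 160 min, histones are between their 120 and 200 min values, and the mitosis list stays between -0.18 and 0.17.

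Cell separation genes made up the other large group. Of 16 measured, 12 fell and 2 rose, against 2.92% and 0.690% of all genes. The median difference was -1.0 (-1.05 in rad3, -0.92 in cds1 and -1.12 in WT). Without WT 11 fell and 1 rose.

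The enzymes that cut the septum fell, as did genes of the cell surface. eng1, the endo-1,3-beta-glucanase of the primary septum, was at -2.09 to -1.13 at 160 min (median -1.89), against 0.54 to 1.27 at 120 min (median 0.99). Its difference was -2.69 ± 0.28 (adjusted p = 2.9e-05), with every array below the reference at 160 min and above it at 120 min. agn1, the endo-1,3-alpha-glucanase that opens the surrounding wall, fell by 1.69 (SE 0.16, adjusted p = 1.1e-05), from -1.53 to -0.63 at 160 min and 0.15 to 0.81 at 120 min. exg1, a beta-glucosidase, fell by 1.78 (SE 0.24, adjusted p = 0.00026). adg1, adg2 and adg3, which code for cell surface glycoproteins, fell by 3.41 (SE 0.35), 2.19 (SE 0.18) and 2.64 (SE 0.26). adg1 had the largest fall of all genes that were called, to 0.094 of its 120 min ratio (adjusted p = 2.8e-05), with arrays from -2.94 to -1.37 at 160 min and 0.69 to 1.79 at 120 min.

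Genes of wall synthesis were divided. gas1 and gas5, glucanosyltransferases that lengthen beta-glucan, fell by 0.69 (SE 0.13) and 1.24 (SE 0.18), and cfh4, a chitin synthase regulator, by 1.20 (SE 0.13). The 2 cfh4 probes differed in size, at -1.93 and -0.47. The glucan synthase gene bgs4 fell by 0.52 (SE 0.09), while bgs1 (-0.20 ± 0.08, adjusted p = 0.28) and bgs3 (-0.01 ± 0.09, adjusted p = 0.97) did not pass the test. gas2, of the same family as gas1 and gas5, rose by 0.71 (SE 0.13, adjusted p = 0.0039). psu1, a wall protein of the SUN family, rose by 0.85 (SE 0.11, adjusted p = 0.00015), from 0.37 to 0.95 at 160 min (median 0.60) and -0.57 to 0.23 at 120 min (median -0.21). The psu1 arrays did not overlap, whereas those of gas2 did. In the untreated course the mean of psu1 was -0.66 at the start, 0.65 at 40 min and 0.19 at 80 min, -0.22 at 120 min and 0.63 at 160 min, and then 0.38.

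Of the 29 genes of the contractile ring and the septation initiation network, 9 fell and none rose, with a list median of -0.02. Over all genes 2.92% fell. pxl1, a paxillin relative of the ring, fell by 1.34 (SE 0.15, adjusted p = 6.8e-05), with arrays at -1.19 to -0.87 at 160 min and 0.01 to 0.60 at 120 min. The others were the type II myosin myp2 (-0.79 ± 0.15), the anillin relative mid2 (-0.78 ± 0.10), fic1, a partner of Cdc15 (-0.72 ± 0.12), and cdc15, the F-BAR scaffold (-0.71 ± 0.14). etd1 (-0.70 ± 0.12), cdc4, the myosin light chain (-0.48 ± 0.11), sid2, the terminal kinase of the network (-0.44 ± 0.11), and imp2, another F-BAR protein (-0.37 ± 0.08), completed the set. The 2 mid2 probes disagreed, and the second alone gave 0.09. Without rad3 5 of the 29 were called, without WT 5 and without cds1 6.

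Most mitosis genes did not pass the test. Of 33 measured, slp1, spo12 and klp5 fell and none rose, against 2.92% lower over all genes, with a list median of -0.05. Without WT 1 of the 33 fell, where 75 of all 4927 genes did. slp1, the activator of the anaphase-promoting complex, was at -1.16 to -0.44 at 160 min (median -0.78) and 0.03 to 1.19 at 120 min (median 0.59), a difference of -1.35 ± 0.20 (adjusted p = 0.00074). It was already past its highest point, with a mean of 1.56 at 80 min and 0.56 at 120 min, followed by -0.80 at 160 min and by 0.80 at the last time. klp5, a kinesin-8 gene, fell by 0.54 (SE 0.10, limma adjusted p = 0.0036), a call lost without WT and without rad3. spo12 fell by 1.10 (SE 0.28, limma adjusted p = 0.044), a call lost in 10 of the 19 other settings. plo1, the polo kinase gene, had a mean of 0.80 at 80 min but stood at -0.33 to 0.12 at 160 min and -0.26 to 0.37 at 120 min, and its difference was -0.07 ± 0.10 (adjusted p = 0.82).

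**Figure D3:**
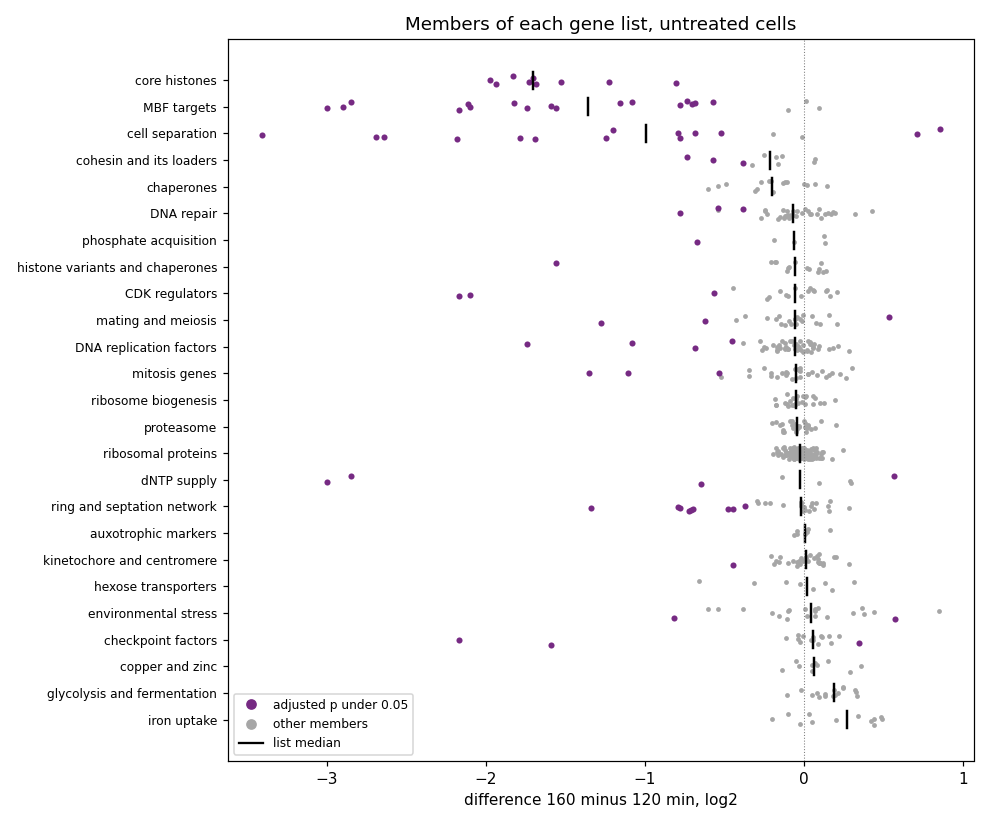
Difference between 160 and 120 min on the log2 scale (x axis) for every measured member of 25 gene lists (rows), in purple where the adjusted p was under 0.05. The medians of core histones (-1.70), MBF targets (-1.36) and cell separation (-1.0) lie far to the left, and that of cohesin, the next row, is -0.21.

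The 34 genes that rose did so by small amounts. The largest difference was that of SPOM_SPAC1039.02, at 1.05 ± 0.08 (adjusted p = 4.0e-06), with arrays from -0.48 to 0.16 at 160 min and -1.54 to -0.67 at 120 min. SPOM_SPAC27D7.11C rose by 1.00 (SE 0.12, adjusted p = 0.00013), and its arrays lay at 1.45 to 2.53 at 160 min against 0.50 to 1.27 at 120 min. atd1, an aldehyde dehydrogenase gene, rose by 0.97 (SE 0.13, adjusted p = 0.00026), from 0.91 to 1.32 at 160 min and -0.03 to 0.46 at 120 min. These 3 showed no overlap of the arrays.

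Among the other named rises were ste11, the transcription factor of mating and early meiosis (0.54 ± 0.11, adjusted p = 0.012), and gpa2, the G protein subunit of glucose sensing (0.58 ± 0.14, adjusted p = 0.028). gpd1, the glycerol-3-phosphate dehydrogenase gene (0.57 ± 0.12), cbf12, a CSL transcription factor gene (0.66 ± 0.12), and ssn6, a corepressor gene (0.60 ± 0.10), rose as well. sec5, an exocyst subunit gene next to htb1 on the chromosome, rose by 0.65 (SE 0.11) while htb1 fell. The remaining named rises were asl1 (0.66 ± 0.11), the sterol desaturase erg31 (0.61 ± 0.14) and vht1, a biotin transporter (0.60 ± 0.11). In the untreated course 22 of the 34 had their lowest mean at 120 min, and 14 had their highest at 160 min and 10 at 40 min. The call bars a lowest mean at 160 min and a highest mean at 120 min, so these times too are in part fixed by it. Without WT 5 genes were called higher, and the calls of ste11, gpa2 and erg31 were each lost in 5 of the 19 other settings.

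Growth and housekeeping lists held no called gene in the main comparison, where 3.61% of all genes were called. For the shorter lists, no call lies near that share. None of 126 ribosomal protein genes, 28 ribosome biogenesis genes, 31 proteasome genes, 16 glycolysis and fermentation genes, 8 hexose transporters, 10 copper and zinc genes, 12 iron uptake genes, 16 chaperones or 7 auxotrophic marker genes was called by limma, and list medians ran from -0.20 for chaperones to 0.27 for iron uptake. Over the 19 other settings, the ribosomal protein, ribosome biogenesis, proteasome and marker lists stayed without a call. Up to 5 iron uptake, 2 glycolysis and fermentation, 1 copper and zinc and 1 hexose transporter genes were called higher in a setting. Up to 3 chaperones and 1 hexose transporter were called lower. Over all genes tested, 722 had an unadjusted limma p under 0.05. The counts in the next lists stand beside 2.92% of all genes lower and 0.690% higher. In the environmental stress list 1 of 22 fell (bet1, which encodes an ER to Golgi SNARE) and 1 rose (gpd1). In the mating list of 24, ste6, the Ras exchange factor gene (-1.28 ± 0.18), and spk1, the pheromone MAP kinase gene (-0.62 ± 0.13), fell, and ste11 rose. csk1, a kinase gene upstream of CDK activation, was the 1 of 5 in the phosphate list that fell (-0.67 ± 0.10). In the checkpoint list of 17, tel1, the ATM-like kinase gene, rose by 0.35 (SE 0.08) beside the falls of mik1 and mrc1, and in the repair list of 37 the mismatch repair gene msh6 fell by 0.54 (SE 0.10) beside ctp1 and eso1. The call was lost in 8 of the 19 other settings for tel1, each fit without a strain among them, and in 6 each for msh6 and eso1. It was lost in 4 for bet1, 3 for gpd1, 2 for spk1 and 1 for csk1.

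The 2 untreated chk1 arrays at 160 min, which the test did not use, gave a separate reading of the later time. Of the 144 genes called lower, 143 were lower on these arrays than the mean of rad3, cds1 and WT at 120 min, against 45.5% of all genes, and all 34 genes called higher were above it. The median distances from that mean were -0.89 for the genes called lower, 0.58 for those called higher and 0.02 for all genes. The 120 min side is shared with the test, so only the 160 min side is new. On the chk1 arrays most histones stood lower than on the other 6 arrays at 160 min, though the chk1 fall itself was not measured. The histone median was -1.23, and hta1 stood at -1.20 and -1.21, below the -0.68 to 0.35 of the other 6 arrays. An exception was hht2, at 0.01 and -0.03, within the -0.13 to 0.53 of the other 6 arrays. cdc22 was at -3.12 and -3.15 and adg1 at -3.43 and -3.46, each also below the other 6 arrays. No test was made of chk1 against the other strains at 160 min, since each strain is 1 culture.

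The HU arm of the same strains was set beside the untreated step to ask which parts of it differed when HU was present. HU inhibits ribonucleotide reductase and stalls forks, and Rad3 and Cds1 keep the MBF genes on while forks are stalled. The step from 120 to 160 min was tested for a difference between arms, as the HU step minus the untreated step of the same strain. By limma 412 genes were called (8.36%), 260 of them with a higher HU step (5.28%) and 152 with a lower one (3.09%). Without rad3 92 genes were called in this test, without cds1 91 and without WT 372.

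Histone genes fell less with HU than without it. The median step of the 9 genes was -0.23 in rad3, -0.34 in cds1 and -0.05 in WT with HU, against -1.30, -1.69 and -2.15 in the same strains without it. hhf3 had HU steps of -0.23 in rad3, -0.17 in cds1 and -0.05 in WT, and the difference between arms was 1.82 ± 0.39 (adjusted p = 0.0085). For hta1 the difference was 1.62 ± 0.39 (adjusted p = 0.018). All but hht2 (0.43, limma adjusted p = 0.13) of the 9 were called, against 5.28% of all genes with a higher HU step. These calls were 8 without WT, but 0 without rad3 and 0 without cds1, where medians of the difference were 1.72 and 1.63, and 1 with the trend and robust options of the test.

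MBF targets had unlike HU steps in the strains. With HU the median step was -1.05 in rad3 and -0.82 in cds1 but -0.01 in WT, against untreated steps of -1.44, -1.15 and -1.47. cdc22 stepped by -1.93 in rad3, -2.29 in cds1 and -0.08 in WT with HU, against -2.60, -2.52 and -3.88 without it; its HU level at 160 min was -0.52 in rad3, -1.51 in cds1 and 2.07 in WT. For cdc18 the HU steps were -1.35 in rad3, -1.88 in cds1 and 0.39 in WT. As the test takes the 3 strains together, none of the 20 targets was called in it (cdc22 1.57 ± 0.72, adjusted p = 0.20), and with 1 culture per strain the difference between strains was not tested. The WT value with HU also rests on the 120 min arrays shared with chk1. In fits that took arrays as samples, or only the 6 conditions compared in each arm, 5 to 7 of the 20 were called higher. In those fits 343 to 570 of all 4927 genes were called higher, against 260 in the main fit. The fits on arrays count technical repeats as samples.

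Cell separation genes stepped down with HU as well. The median step of the 16 was -0.77 in rad3, -1.13 in cds1 and -1.56 in WT with HU, against -1.05, -0.92 and -1.12 without it. eng1 stepped by -1.93 in rad3, -2.57 in cds1 and -3.58 in WT with HU, and the difference between arms was -0.01 ± 0.59 (adjusted p = 1.0). For agn1 it was 0.02 ± 0.29 and for adg2 0.00 ± 0.55. The 95% intervals of these differences ran from -1.27 to 1.26 for eng1, from -0.61 to 0.64 for agn1 and from -1.17 to 1.18 for adg2. bgs3 was the 1 gene of the list with a difference called, -0.44 ± 0.11 (limma adjusted p = 0.018), while 8.36% of all genes were called. The ring gene pxl1 (0.05) and slp1 (-0.15) had small differences that were not called.

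**Figure D4:**
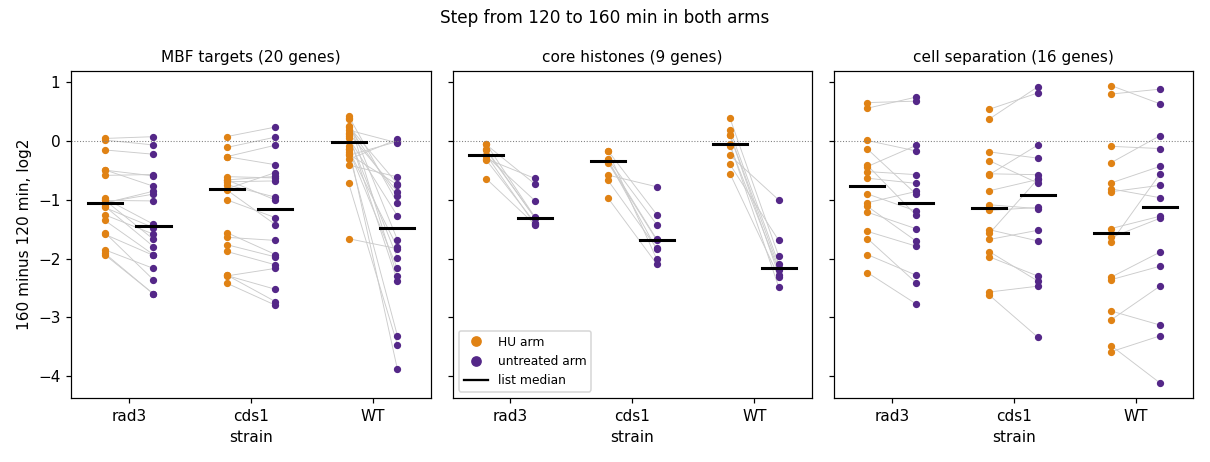
Step from 120 to 160 min on the log2 scale (y axis) in the HU arm (orange, left) and the untreated arm (purple, right) of rad3, cds1 and WT, with a point per gene, grey lines joining a gene's 2 values and black bars for list medians. The histone medians are -0.23, -0.34 and -0.05 with HU, the MBF median in WT with HU is -0.01, and the cell separation medians lie below 0 in both arms, with gas2 and psu1 above 0.

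Heat shock and stress genes stepped up with HU relative to the untreated step. Of 16 chaperones 11 had a higher HU step and none a lower one, and of 22 environmental stress genes 10 and none. Over all genes 5.28% had a higher HU step and 3.09% a lower one. hsp104, the disaggregase gene, stepped by 1.06 in rad3, 1.09 in cds1 and 0.87 in WT with HU, against -0.23, -0.60 and -0.98 without it (difference 1.61 ± 0.19, adjusted p = 0.00016). hsp16, a small heat shock protein gene, had a difference of 1.89 ± 0.31 (adjusted p = 0.0015). With quantile normalization 3 of the 16 chaperones and 2 of the 22 stress genes were called higher.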

How the data were processed

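Total RNA of elutriated cultures was measured on 2-colour arrays, and the deposited value table holds log2 ratios, Cy5 sample over Cy3 reference per the labels; array medians lie near 0, but no source used here gives the authors' background correction, normalization or centring. Of the values, 99.401% were present. The table holds no intensities or counts, so array number limits the precision and detection above background is unknown.

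The 9858 probes were named through the platform annotation (9632 with 1 symbol, 44 with several, 182 with none), with symbols updated for 9630 from RefSeq ASM294v3, which also gave neighbouring genes; no coordinates are printed because the files name no build. Probes present on under 80% of the arrays (35) were left out and the others averaged per gene, giving 4927 genes, 4814 with a single name.

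The 2 arrays of a condition were averaged, and 15 conditions (untreated rad3, cds1 and WT at 40 to 200 min) were fitted with strain and time in limma 3.58.1 (R 4.3.3; lmFit and eBayes, 8 residual degrees of freedom). Differences are 160 minus 120 min, with Benjamini-Hochberg adjustment over all genes. The HU comparison fitted the 15 differences between arms in the same way. The procedure was tested on simulated data.

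Named genes were the 15 largest falls and 15 largest rises called with the same sign on all repeats, up to 4 members per list, a set of cell cycle genes and, for lists under 25 members, all members; other genes were chosen after their values were seen. The comparison, members and lists were chosen with earlier results of these data known. chk1 arrays were left out as described. Alternatives covered the conditions in the fit, array repeats, strains, centring, quantile normalization, missing values, probes and eBayes options.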

Additional observations from a re-analysis of the deposited data

Results flagged for a closer look

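In 6 named genes, none of them called in the main comparison, the step from 120 to 160 min went in opposite directions in different strains with both array repeats of each strain on its side. The differences between strains were not tested, since each strain is 1 culture. For cdc25 the step was -0.20 in cds1 and 0.36 in WT, and for ark1, the Aurora kinase gene, it was -0.22 in cds1 and 0.40 in WT. For chk1 it was -0.25 in rad3 and 0.49 in WT, where the 120 min value comes from the arrays that match the chk1-labelled ones. For rum1 it was -0.18 in rad3, -0.24 in cds1 and 0.11 in WT. For klp6, the partner kinesin of klp5, it was -0.52 in rad3, -0.26 in cds1 and 0.031 in WT. For ctr4, a copper transporter gene, it was -0.22 in rad3, 0.071 in cds1 and -0.26 in WT. In 5 of the 6 the WT step stood above those of the mutants on the opposite side, and in each of these the WT step rests on the doubtful 120 min arrays; the part of those arrays in the pattern was not tested.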

How the results depend on the processing

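In 19 other settings, 39 of the 69 named genes called kept their call and direction in every one, among them all core histones; opposite directions among them arose only with single probes, dfr1 at 0.22 on its first probe and mid2 at 0.090 on its second. Of the 46 genes lower by over 2-fold, 44 to 46 kept their call. The number of genes called was 311 (98 higher) with only the 6 conditions compared, 287 (89 higher) with the condition as a random block, and 358 (181 higher) with chk1 added as labelled. With chk1 added without its 120 min arrays, chosen after the data were seen, 72 were higher. The share of higher genes among those called was 19.1% as reported, 31.5%, 31.0%, 50.6% and 28.1% in these, and 29.1% with quantile normalization. Leaving out a strain gave 80 (without WT, 5 higher and 75 lower), 92 (without rad3, 16 higher and 76 lower) or 158 called (without cds1, 127 lower); leaving out an array repeat gave 113 (90 lower, without replicate 1) or 133. Without the first rad3 repeat at 160 min, also added later, 166 were called, and 401 for the HU step. For the HU step the counts were 153 with quantile normalization, 266 and 257 with single probes, 91 to 372 without a strain (92 without rad3), and 213 and 301 without an array repeat; HU has no 0 min arrays, so that setting gave no value.

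With arrays as samples and the repeat number as a replicate block, 278 genes were called (89 higher, 32%) and 995 for the HU step. The numbers mark technical repeats. Deviations of same-numbered repeats correlated between 160 and 120 min at 0.35 in rad3, 0.080 in cds1 and 0.78 in WT, and over all 15 pairs of the 6 conditions, most of them across strains, at -0.56 to 0.78, so not every pair deviated together.

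The main limit is that 3 cultures, each hybridised on 2 arrays, carry every test. The WT culture cannot be told from chk1 at 120 min, ratios give no detection limit, and paralogs may share signal. The planned search for promoter motifs was not run, since no promoter sequences were used here.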

Other observations

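Of the 46 genes lower by over 2-fold, 29 belong to the MBF, histone, cell separation or ring lists and 32 to any list, and the others were chosen here after their values were seen. cts2, a predicted chitinase gene, fell by 1.86 (SE 0.20; its 2 probes gave -1.04 and -2.67) and knh2 by 1.23 (SE 0.11). Among the smaller falls was ecm33, a wall protein gene, by 0.64 (SE 0.12). uds1 (-2.25), rid1 (-1.56), klp8, a kinesin gene (-1.32), and gal1, the galactokinase gene (-1.32), fell as well.

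Rises outside the lists were also chosen after their values were seen, and other genes of the same pathways were not counted. Without WT 5 of all genes were called higher. The heme synthesis genes hem1 (0.45 ± 0.08, limma adjusted p = 0.0037) and hem13 (0.44 ± 0.11, limma adjusted p = 0.035) rose. So did the glucose receptor gene git3 (0.48 ± 0.12, limma adjusted p = 0.035), whose G protein gene gpa2 also rose. fas2, the fatty acid synthase subunit gene, rose by 0.36 (SE 0.08).

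Among genes called and adjacent in the RefSeq annotation there were 12 neighbouring pairs, of which 10 fell together. As 144 of the 178 called genes were lower, most pairs of called genes would fall together in any case. The number of such pairs was not set against a share over all neighbours. Beside the histone pairs they included slp1 with eng1 and ssb1 with mik1, pairs that join genes of different lists. The pairs that moved in opposite directions were htb1 with sec5 and cdm1 with sad1, the gene of a spindle pole body protein, which rose by 0.40.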
